A study of Mus musculus with 11 samples.

Results

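The histone gene window described here is a stretch of 400000 bp of mouse chromosome 13 (mm10) around Hist1h1c, the gene of the linker histone H1.2. It runs from 238808 bp before the Hist1h1c start (chr13, position 23738808, plus strand) to 161192 bp after it. Its members are all non-coding features of the deposited table that overlap the window on either strand, 22 of 36097 features in all, 14 on the plus strand and 8 on the minus strand. The window was chosen by measured values: MSTRG.23435 and MSTRG.23436, which lie upstream of Hist1h1c, had been seen to be low in knockout retina. Differences between the genotypes within the window are therefore descriptions: no p-value is given for a member, and the calls of the fit over all features only sort the members and support nothing about the window. Retinas of mice at postnatal day 21 were compared between 5 wild-type libraries and 6 libraries of Nrl knock-out mice. The RNA had been depleted of poly(A) transcripts and was read as stranded single-end reads of 50 bp, and the labels name neither a strain nor the animals behind each replicate. The members were 117 to 2715 bp long, with a median of 227.5 bp, and 14 of the 22 reached a mean of 5 normalised counts over the 11 libraries, the minimum for the fit across all features.

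Nrl is a leucine zipper transcription factor on which rod identity depends, and retinas without it have cone-like photoreceptors in place of rods. Replication-dependent histone genes lie in clusters, and their mRNAs end in a stem-loop instead of a poly(A) tail, so that they pass through a depletion of poly(A) RNA. Linker histones of the H1 family bind the DNA where it enters and leaves the nucleosome and take part in chromatin compaction, which in mouse rods is unusually dense. The window also holds tRNA genes, which RNA polymerase III transcribes, the ubiquitin ligase gene Trim38, the iron regulator gene Hfe and the Slc17a genes of anion and phosphate transporters.

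The labels were checked on the targeted gene with MSTRG.28375, a feature on the strand opposite to Nrl, where wild-type stood at 42.1 ± 9.42 normalised counts (SD, n = 5), against 0.126 ± 0.310 for knockout (SD, n = 6). The libraries held 3238184 to 4876429 reads in listed features, and a count of 0 allows up to 3 reads, 2.28 to 4.11 normalised counts by library; this floor covers counting error only. The 18 rod genes had 44 tested features, at 15 of the genes, of which 33 were called lower in knockout and 4 higher, and their summed level lay between 3628 and 6029 normalised counts in wild-type and between 515 and 883 in knockout. The 13 cone genes had 28, at 9 of the genes, of which 2 were called lower and 17 higher, and the sums were 384 to 457 and 1271 to 1930. The bulk libraries cannot tell fewer cells of a type from less RNA per cell, and the part of the changed rod and cone content in the values of the window was not tested. Proliferating cells, which make most replication-dependent histone RNA, had 1 tested feature among 21 marker genes: MSTRG.60088, opposite to Ccne2, stood at 69.0 normalised counts in wild-type and 71.6 in knockout, a log2 difference of 0.04.

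The 5 linker histone genes of the window are shown first, because the authors' deposited table lists Hist1h1a, Hist1h1c and Hist1h1e among the mRNAs that are lower in knockout and lists neither Hist1h1d nor Hist1h1t. The lines give the 130 bases before each start from the RefSeq promoter table (GRCm38.p6), 5′ to 3′ on the strand of the gene. Capitals mark AAACACA, known as the H1 box, and the letters CCAAT and TATAA.
Hist1h1d (chr13:23554902-23555031, plus strand): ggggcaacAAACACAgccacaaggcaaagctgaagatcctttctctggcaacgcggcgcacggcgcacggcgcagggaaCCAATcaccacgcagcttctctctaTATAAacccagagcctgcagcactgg
Hist1h1e (chr13:23622559-23622688, minus strand): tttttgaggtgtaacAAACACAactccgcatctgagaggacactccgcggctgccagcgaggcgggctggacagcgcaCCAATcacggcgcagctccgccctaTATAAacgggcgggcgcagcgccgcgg
Hist1h1t (chr13:23695681-23695810, plus strand): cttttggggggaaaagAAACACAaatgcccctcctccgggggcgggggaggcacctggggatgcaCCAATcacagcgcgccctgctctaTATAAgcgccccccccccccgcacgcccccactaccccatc
Hist1h1c (chr13:23738677-23738806, plus strand): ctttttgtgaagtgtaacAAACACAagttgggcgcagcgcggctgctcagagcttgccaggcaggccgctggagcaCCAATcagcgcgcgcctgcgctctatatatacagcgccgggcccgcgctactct
Hist1h1a (chr13:23763538-23763667, plus strand): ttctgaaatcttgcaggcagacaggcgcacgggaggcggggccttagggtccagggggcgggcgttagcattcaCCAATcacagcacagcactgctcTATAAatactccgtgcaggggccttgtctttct
AAACACA stood 112 to 122 bases before the start in 4 of the 5 genes and was not among the letters of Hist1h1a. CCAAT stood 51 to 65 bases before the start in all 5, and TATAA was found in 4, the exception being Hist1h1c. Searched on both strands of all 32851 RefSeq promoters (250 bases before to 50 after each start), AAACACA was found in 7.18%, CCAAT in 37.4% and TATAA in 24.9%. TAATCC, the core letters bound by the photoreceptor factor Crx, stood in 0 of these 5 promoters and 7.06% of all, and TGCTGA, a core of Maf-family sites such as those of Nrl, in 1 of 5 (Hist1h1a) and 19.5% of all. Each match is a description of letters and not a binding site. The members themselves are named by position only.

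Most of the 22 features overlapped no histone gene. GENCODE M21 annotates 29 replication-dependent histone genes in the window, 5 linker and 24 core. No member lay on the strand of a histone gene, and 3 lay opposite to one: MSTRG.23393 to Hist1h1d, MSTRG.23412 to Hist1h2be and MSTRG.23457 to Hist1h1a. A further 5 members overlapped a tRNA gene of RefSeq, 3 lay inside Trim38 and 11 lay in none of these places. Outside the window, none of the 36097 features overlapped any of the other 42 replication-dependent histone genes on either strand. The table lists non-coding features, and its treatment of coding genes was not given in the sources used here. Nothing about histone mRNA is therefore read from these counts.

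In the fit over all features (limma on log2 of the normalised count plus 1, adjusted p below 0.05), 5 of the 14 tested members were lower in knockout, 0 were higher and 9 were not called. The background was 28.1% of 21395 tested features called in either direction, 12.6% lower and 15.6% higher. The ranges of the groups did not overlap, with knockout lower, for 4 of the 14, against 9.13% of all tested features, and for 20.2% in either direction. Without the minimum mean, 7 of the 22 were lower and 0 higher, against 21.1% of 36097 features called and 9.12% lower. Because the window was chosen on this comparison, these counts are given for reading the values only. The mean was lower in knockout for 19 of the 22 and higher for 3. The share of all features with a lower mean is not given here, so nothing is read from this split.

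**Figure D1:**
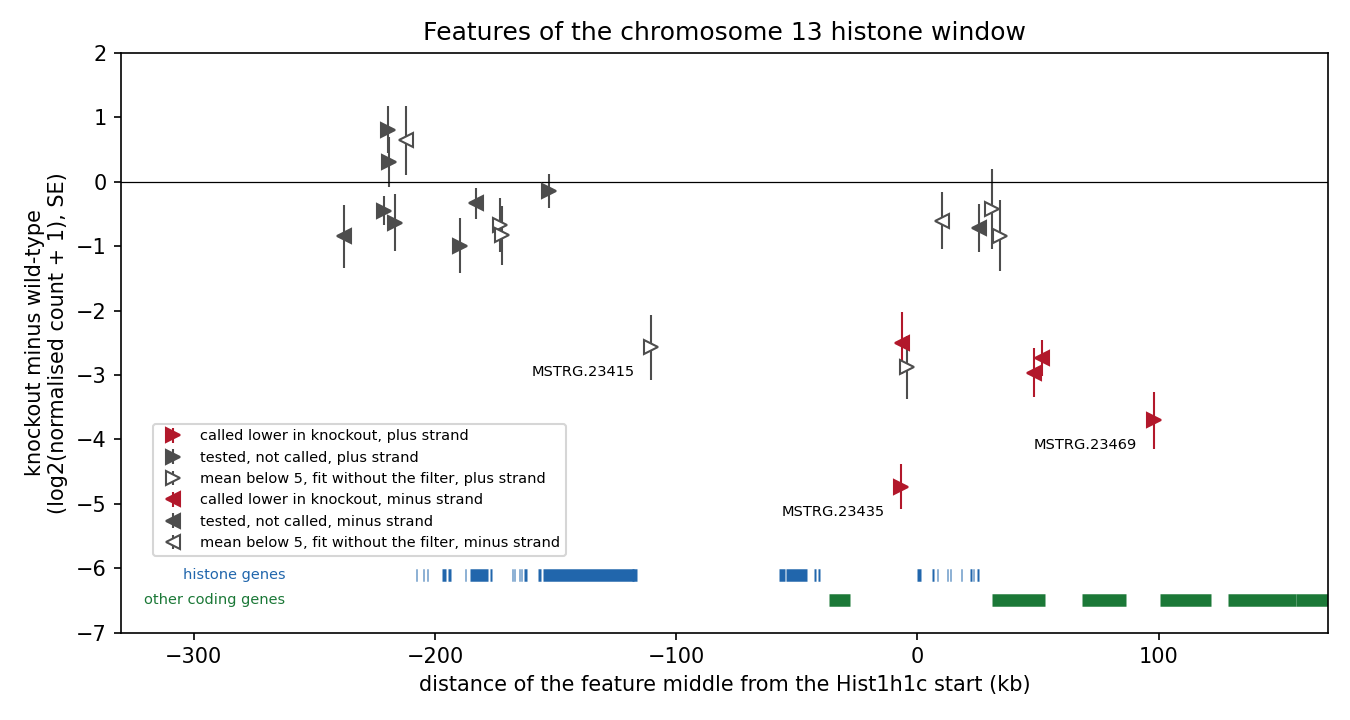
Log2 difference (knockout minus wild-type, log2 of normalised count plus 1) of the 22 members against the distance of each feature's middle from the Hist1h1c start in kb; bars are standard errors, triangles point along the strand, and the blue and green bars are histone and other coding genes. The 5 members called lower and the 2 unfilled points near them lie from MSTRG.23415 rightwards, between -2.50 and -4.73, the other 4 members on that side between -0.83 and -0.42, and the 11 members on the left between -0.99 and 0.81.

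MSTRG.23435 (chr13:23730716-23733430, plus strand, intergenic) is the longest member at 2715 bp. It ends 5378 bp before the Hist1h1c start on the same strand and begins 610 bp after the pseudogene Gm11338. Its normalised counts in wild-type replicates 1 to 5 were 281, 188, 199.5, 163 and 215. In knockout replicates 1 to 6 they were 14.6, 1.01, 11.6, 6.72, 8.34 and 6.83. Every wild-type library was above every knockout library, and the lowest wild-type value was far above the highest knockout value. The means were 209 ± 44.3 (SD, n = 5) and 8.18 ± 4.64 (SD, n = 6), 25.6 times higher in wild-type, and the log2 difference was -4.73 (SE 0.35). The feature made up 23.7% of the signal of the 22 members in wild-type and 1.94% in knockout. Per length it stood at 77.1 normalised counts per kb in wild-type and 3.01 in knockout.

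MSTRG.23436 (chr13:23732044-23732538, minus strand, 495 bp) lies wholly within the span of MSTRG.23435, on the other strand, and covers 18.2% of it. Strand use in counting was not given in the sources used here. In this pair the signals cannot be told apart with certainty. Its wild-type values were 27.4, 28.2, 5.57, 21.3 and 9.08 normalised counts, and its knockout values 0, 3.03, 2.49, 5.76, 2.28 and 0.976. Wild-type replicates 3 and 5 were low, and the groups overlapped, since wild-type replicate 3 was below knockout replicate 4. The log2 difference was -2.50 (SE 0.48), with means of 18.3 ± 10.5 (SD, n = 5) and 2.42 ± 1.97 (SD, n = 6). In wild-type, MSTRG.23435 was 6.67 to 35.8 times its overlapping partner, so the pair did not keep a fixed ratio from library to library.

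MSTRG.23437 (chr13:23734485-23734684, plus strand, 200 bp) is the member nearest to Hist1h1c, 4124 bp before its start, and was singled out after its values were seen. It did not reach the minimum mean. It stood at 8.23, 10.4, 8.35, 8.71 and 12.1 normalised counts in wild-type and at 1.04 and 3.03 in knockout replicates 1 and 2, and it was at 0 in the other 4. The groups did not overlap. In the 9 libraries whose reads could be recovered as whole numbers, 35 wild-type reads stood against 1 knockout read, a depth-scaled ratio of 49.8 (95% counting interval 8.37 to 2022). Those libraries leave out wild-type replicate 5 and knockout replicate 2, each the highest of its group. Over all 11 libraries the wild-type mean was 14.1 times the knockout mean. Counting intervals here and below cover counting error only and leave out the spread between libraries. No member lay within Hist1h1c itself, and the next one on its far side, MSTRG.23447 (chr13:23748843-23749000, minus strand), stood at 5.63 ± 2.17 and 3.78 ± 2.89 normalised counts with overlapping groups.

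**Figure D2:**
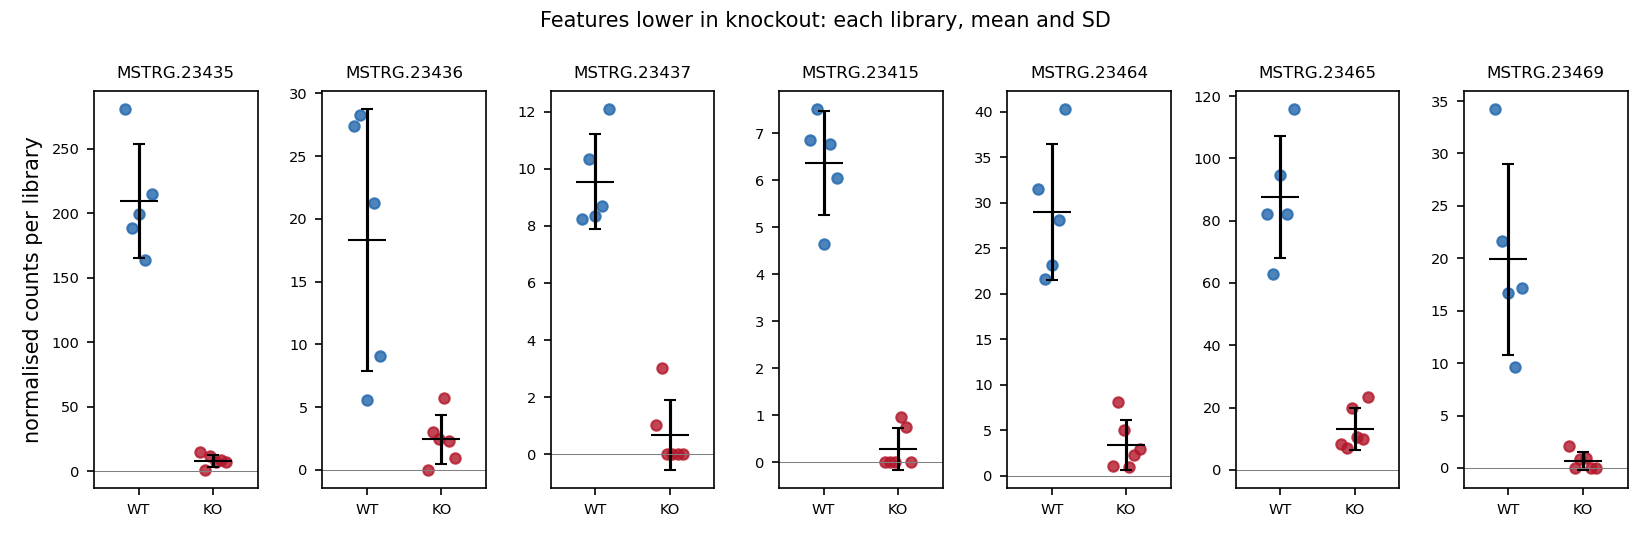
Normalised counts in each library for the 5 members called lower in knockout and for MSTRG.23437 and MSTRG.23415, which fell below the minimum mean; each panel has its own scale, points are libraries, and the bars are the mean and SD (WT, n = 5; KO, n = 6). The groups are apart in every panel except that of MSTRG.23436, where the lowest wild-type value of 5.57 lies under the highest knockout value of 5.76.

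MSTRG.23415 (chr13:23628350-23628472, plus strand, 123 bp) lies 110336 bp before the Hist1h1c start, to the right of Hist1h1e, and was also singled out after its values were seen. Its wild-type values were 6.86, 7.53, 4.64, 6.77 and 6.05 normalised counts. Knockout replicates 4 and 5 stood at 0.960 and 0.758 and the other 4 at 0. The groups did not overlap. In the 9 libraries with recovered reads (without wild-type replicate 5 and knockout replicate 2), 25 wild-type reads stood against 2 knockout reads. The depth-scaled ratio was 17.8 (95% counting interval 4.43 to 155). All knockout values of this feature were under the level that a count of 0 allows.

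Opposite to Trim38, on the minus strand, lie a pair of the members called lower. MSTRG.23464 (chr13:23786785-23787523, 739 bp, over an intron) stood at 31.5, 21.6, 23.2, 28.1 and 40.4 normalised counts in wild-type and at 1.04, 8.08, 4.98, 0.960, 2.28 and 2.93 in knockout. The lowest wild-type library was above the highest knockout library. The log2 difference was -2.96 (SE 0.38), with means of 29.0 ± 7.48 (SD, n = 5) and 3.38 ± 2.73 (SD, n = 6).

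MSTRG.23465 (chr13:23789368-23791314, 1947 bp) begins 1845 bp further on, and 24.0% of it lies over Trim38 exons. Its wild-type values were 82.3, 63.0, 94.7, 82.2 and 116 normalised counts, and its knockout values 8.32, 7.07, 19.9, 10.6, 9.86 and 23.4. The groups again did not overlap, and knockout replicates 3 and 6 were the highest of the knockout. The log2 difference was -2.74 (SE 0.28), with means of 87.6 ± 19.5 (SD, n = 5) and 13.2 ± 6.77 (SD, n = 6). Per length these 2 features stood at 39.2 and 45.0 normalised counts per kb in wild-type and at 4.57 and 6.78 in knockout. The authors' deposited table lists Trim38 mRNA as lower in knockout, and reads of that gene and of the 2 features cannot be told apart with certainty. The third member in Trim38, MSTRG.23460, lies on the strand of the gene, outside its exons, and stood at 3.79 ± 3.804 and 1.10 ± 0.488 normalised counts with overlapping groups.

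MSTRG.23469 (chr13:23836646-23837130, plus strand, 485 bp) is the rightmost member. GENCODE M21 places it between genes, while RefSeq's span of Slc17a3 covers it. The authors' deposited table lists Slc17a3 mRNA as lower in knockout. Reads of that gene and of the feature cannot be told apart with certainty. MSTRG.23469 stood at 34.3, 21.6, 16.7, 9.67 and 17.1 normalised counts in wild-type and at 2.08, 0, 0.830, 0.960, 0 and 0 in knockout. The groups did not overlap, and wild-type replicate 1 was the highest library. The log2 difference was -3.70 (SE 0.44), with means of 19.9 ± 9.12 (SD, n = 5) and 0.645 ± 0.829 (SD, n = 6). In the 9 libraries with recovered reads (without wild-type replicate 5 and knockout replicate 2), 76 wild-type reads stood against 4 knockout reads. The depth-scaled ratio was 27.0 (95% counting interval 10.1 to 102).

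Per length, the 5 members called lower stood at 37.0 to 77.1 normalised counts per kb in wild-type and at 1.33 to 6.78 in knockout. The coefficient of variation over the wild-type libraries was 21.1% for MSTRG.23435, 22.2% for MSTRG.23465, 25.8% for MSTRG.23464, 45.8% for MSTRG.23469 and 57.1% for MSTRG.23436.

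In the authors' deposited table, 7 of the 22 members have an adjusted p below 0.05, all with a negative fold change: the 5 called here, MSTRG.23415 and MSTRG.23437. That comparison rests on the same data that brought the window to notice. The share of all features below that level in it was not counted here, so nothing is read from the count. The authors' deposited table gives a log2 fold change of -4.26 (SE 0.99) for MSTRG.23415, -3.95 (SE 0.85) for MSTRG.23437 and -5.00 (SE 0.81) for MSTRG.23469, further from 0 than the differences on the log2(normalised count + 1) scale, where low values are compressed. For MSTRG.23435 the authors' deposited table gives -4.67 (SE 0.29).

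The members lay on 2 sides of the window, a split made after the values were seen at the end of Hist1h1e (chr13, position 23622558). To its left lay 11 members, 8 of them tested, of which 0 were called, with a median log2 difference of -0.39 over those tested. To its right lay 11 members, 6 of them tested, of which 5 were lower and 1, MSTRG.23457, was not called; the mean was lower in knockout for all 11. Without MSTRG.23435 and MSTRG.23436, which brought the window to notice, 3 of the 4 tested on the right were lower. The table's own domains cut the window elsewhere: 2 of 10 tested members were lower in TAD_1883 and 3 of 4 in TAD_1884. By strand, 2 of 8 tested plus-strand members and 3 of 6 tested minus-strand members were lower. Over all tested features 12.6% were lower and 28.1% were called, and since the values placed the split and chose the window, nothing is read from these counts.

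At the left end, between positions 23500772 and 23522133, lie the 5 members that overlap tRNA genes of RefSeq, the genes of the adaptor RNAs of translation. In the fit with genotype as the only term 0 of the 5 were called. Single libraries changed this: MSTRG.23369 was called without knockout replicate 1 (log2 difference -0.59), MSTRG.23368 without wild-type replicate 5 (-1.27) and MSTRG.23371 without knockout replicate 6 (1.00). MSTRG.23369 (chr13:23517260-23517889, plus strand, 630 bp), over n-TGgcc6 and n-TMcat6, was the most abundant member of all. It stood at 365, 230.5, 200.5, 271 and 219 normalised counts in wild-type and at 299, 229, 138, 237, 102 and 169 in knockout. The groups overlapped, and the log2 difference was -0.45 (SE 0.23). Per length it stood at 408 normalised counts per kb in wild-type and 311 in knockout, the highest of the members in both groups.

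MSTRG.23373 (chr13:23521919-23522133, plus strand), over n-TSgct4, stood at 74.1, 103.5, 37.1, 95.8 and 39.3 normalised counts in wild-type and at 105, 58.6, 23.2, 78.7, 19.0 and 21.5 in knockout. MSTRG.23368 (chr13:23500772-23501000, minus strand), over n-TSaga7, stood at 46.6, 54.6, 20.4, 39.7 and 8.07 in wild-type and at 35.4, 9.09, 9.96, 44.1, 9.10 and 8.79 in knockout. MSTRG.23371 (chr13:23519087-23519345, plus strand), over n-TQttg4, stood at 8.23, 17.9, 10.2, 18.4 and 8.07 in wild-type and at 49.9, 16.2, 11.6, 45.1, 20.5 and 10.7 in knockout. In all of them the groups overlapped, and knockout replicates 1 and 4 were the highest of the knockout. The log2 differences were -0.63 (SE 0.45), -0.85 (SE 0.49) and 0.81 (SE 0.37). MSTRG.23372, over n-TQttg5, had a mean of 16.6 in wild-type and 20.7 in knockout and a log2 difference of 0.31 (SE 0.39).

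The tRNA members were high and low in the same libraries, a pattern noticed after the values were seen. Wild-type replicates 3 and 5 were the 2 lowest of the wild-type in 4 of the 5 members, and knockout replicates 1 and 4 the 2 highest of the knockout in 5 of 5. The same held for 69.9% and 78.6% of the 103 tested features at tRNA genes outside the window, against 15.8% and 9.41% of all tested features. Of those 103 features, 8 were called lower and 5 higher. What sets these libraries apart was not tested. The low wild-type values of MSTRG.23436 fell in the same replicates 3 and 5. Its knockout values did not follow the pattern: replicate 4 was the highest at 5.76, but replicate 1 was the lowest at 0.

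**Figure D3:**
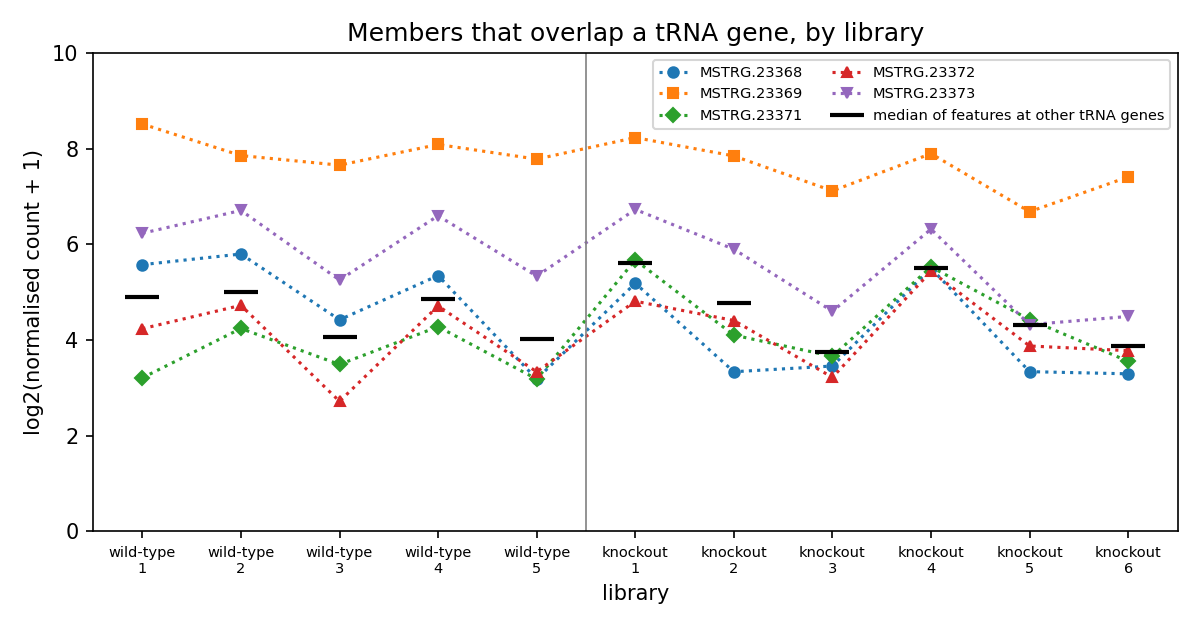
Log2 of the normalised count plus 1 in each library for the 5 members at tRNA genes, with black bars for the median of the 113 features at tRNA genes outside the window; dotted lines join the points of 1 feature and carry no order. The black bars and 4 of the 5 members are lowest of the wild-type in replicates 3 and 5, the exception being MSTRG.23371, and the bars and all 5 members are highest of the knockout in replicates 1 and 4.

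Summed by library, the 5 tRNA members gave 512, 432, 274, 450 and 283 normalised counts in wild-type and 517, 333, 191, 447, 164 and 223 in knockout. The 17 others gave 594, 435, 496, 444 and 507 in wild-type and 117, 121, 110.4, 119, 88.0 and 103 in knockout. In both groups the tRNA sums were highest in the replicates numbered 1, 4 and 2, and the labels do not say whether a number ties libraries across the groups. The tRNA sums overlapped between the genotypes, and the sums of the 17 others did not. Those 17 include MSTRG.23435, by which the window was chosen, and the other members called lower. Their separation is therefore not a separate result. All members together stood at 885 ± 133 (SD, n = 5) and 422 ± 155 (SD, n = 6).

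**Figure D4:**
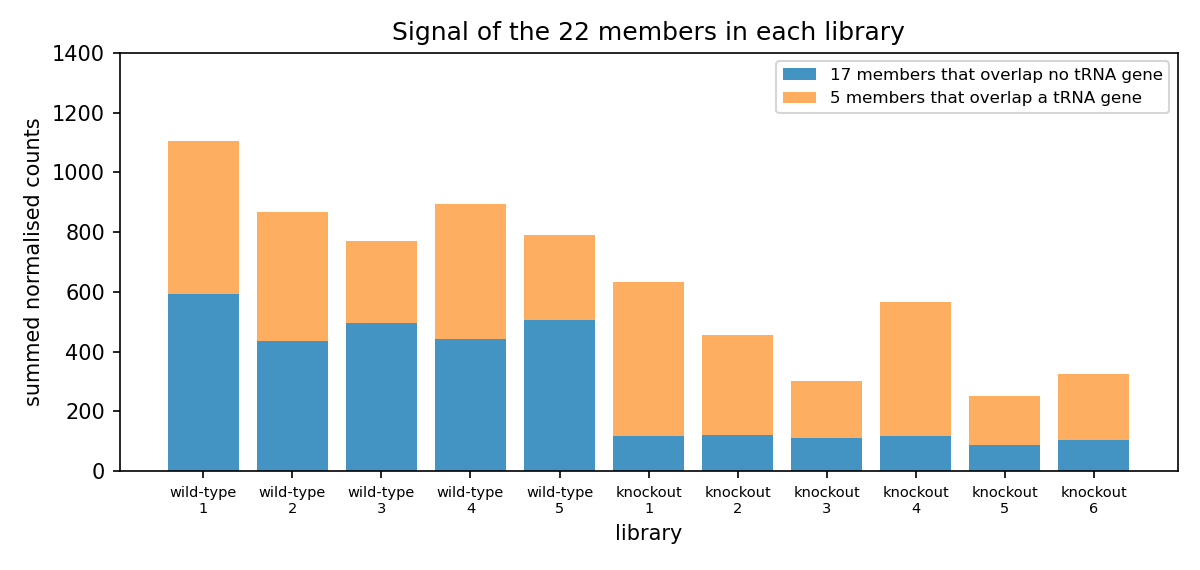
Summed normalised counts of the 22 members in each library, divided into the 5 members at tRNA genes (orange, upper) and the 17 others (blue, lower). The blue bars span 435 to 594 in wild-type and 88.0 to 121 in knockout, and the orange bars overlap between the genotypes. The blue bars include MSTRG.23435, by which the window was chosen, and the other members called lower.

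The 3 members opposite to histone genes were not called. MSTRG.23393 (chr13:23555413-23556174, minus strand, 762 bp) lies wholly over the exon of Hist1h1d, the H1.3 gene. It stood at 64.5, 44.2, 29.7, 59.97 and 36.3 normalised counts in wild-type and at 43.7, 35.3, 30.7, 51.8, 28.1 and 29.3 in knockout. The groups overlapped over most of their ranges, and the log2 difference was -0.33 (SE 0.24). MSTRG.23412 opposite to Hist1h2be had means of 20.7 and 18.7 and a log2 difference of -0.15 (SE 0.27), and MSTRG.23457 opposite to Hist1h1a, the H1.1 gene, 13.6 and 7.34 and a log2 difference of -0.72 (SE 0.38). If counting did not use strand, reads of these histone genes could stand in the 3 features.

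Of the remaining members on the left, MSTRG.23389 (chr13:23548929-23549198, plus strand) was tested and not called, with means of 8.42 ± 5.00 and 3.45 ± 1.62 normalised counts and a log2 difference of -0.99 (SE 0.42). MSTRG.23374, MSTRG.23398 and MSTRG.23399 on the left and MSTRG.23459 on the right stood under the minimum mean, between 1.41 and 5.96 in wild-type and between 1.305 and 3.50 in knockout, with overlapping groups. Wild-type replicate 3 was the highest wild-type library for MSTRG.23398, MSTRG.23399, MSTRG.23459 and MSTRG.23460, at 10.2 to 11.1 normalised counts.

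At the left edge, the nearest feature outside the window, MSTRG.23367, stood at 4.63 ± 2.79 and 5.80 ± 2.203 normalised counts and was not called. At the right edge, the nearest feature outside, MSTRG.23475 (chr13:23927624-23928200, minus strand), went the other way from MSTRG.23469: wild-type stood at 1.80 ± 1.34 (SD, n = 5) against 35.6 ± 15.2 for knockout (SD, n = 6), a log2 difference of 3.79. In stretches of the same length to the left and right, 1 of 18 tested features was lower and 0 higher on the left, with a median log2 difference of -0.03. On the right, 1 of 9 was lower and 2 were higher, with a median of -0.36. The median over the 14 tested members was -0.78, beside -0.02 over all tested features.

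The other histone gene cluster of the chromosome (chr13:21715763-22043676), with 24 replication-dependent histone genes, held 17 features, of which 15 were tested, 4 were lower and 0 higher, with a median log2 difference of -0.49. The lower features there were MSTRG.23276, MSTRG.23298, MSTRG.23301 and MSTRG.23313. MSTRG.23301 had the largest difference of the 4, at 28.4 ± 12.5 and 5.83 ± 3.23 normalised counts and a log2 difference of -2.17. In the rest of TAD_1883 outside the window, 1 of 19 tested features was lower and 0 higher. In the rest of TAD_1884, 4 of 12 were lower and 2 higher. The lower ones include MSTRG.23508, MSTRG.23510 and MSTRG.23512 (chr13:24312104-24317532, minus strand), whose log2 differences were -5.01, -5.77 and -4.49.

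Per the authors' deposited table, the 2 domains that hold the members list 13 mRNAs as lower in knockout and 0 as higher, among 857 lower and 1453 higher in the whole table. Of the 13, 7 are histone mRNAs: the linker histones Hist1h1a, Hist1h1c and Hist1h1e and the core histones Hist1h2ac, Hist1h2bc, Hist1h2bh and Hist1h4h. The other 6 are Hfe, Slc17a1, Slc17a2, Slc17a3, Slc17a4 and Trim38. So 3 of the 5 linker and 4 of the 24 core histone genes of the window are listed, and 0 of the 24 in the other cluster of the chromosome. Elsewhere the authors' deposited table lists Hist2h3c1 and Hist2h3c2 as lower and Hist2h2ab, Hist2h2ac, Hist2h2be, Hist3h2a and Hist3h2ba as higher. Their making was not given in the sources used here.

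Genes that act on histone RNA and histones made outside S phase gave few features. Of 16 genes of histone RNA processing, 2 had a tested feature, MSTRG.67155 opposite to the stem-loop binding protein gene Slbp (5.41 and 7.80 normalised counts in wild-type and knockout) and MSTRG.35316 opposite to the cap-binding gene Ncbp2 (4.16 and 5.89), and 0 were called. Of 9 genes of replication-independent histones, 1 had a tested feature: MSTRG.17797, opposite to the H3.3 gene H3f3b, stood at 2.54 in wild-type and 7.63 in knockout and was higher, with a log2 difference of 1.53.

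The profile of MSTRG.23435 over the 11 libraries was most like that of MSTRG.98246 on chromosome X, on the strand of 3010001F23Rik, with a mean absolute difference of 0.366 between the centred log2 profiles. It stood at 1205 and 45.7 normalised counts in wild-type and knockout. Next came MSTRG.7062 opposite to Lpgat1 (0.408), the intergenic MSTRG.26412 further along chromosome 13 (0.410) and MSTRG.54676 on chromosome 3 (0.426), and MSTRG.71255 opposite to Zan (0.429). The features most like MSTRG.23436 were MSTRG.33408 (0.409), MSTRG.76888 opposite to Ybx3 (0.419), MSTRG.70317 opposite to Med13l (0.452), MSTRG.6466 opposite to Hnrnpu (0.461) and MSTRG.55022 (0.469). All 10 had a lower mean in knockout, which the choice by profile fixes.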

How the data were processed

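Poly(A)-depleted RNA of mouse retina was analysed in 5 wild-type and 6 Nrl-knockout libraries, grouped by the labels. The labels number replicates without naming animals, so errors measure the spread between libraries, which may be technical. The deposited values are read counts normalised by the authors with DESeq2, per the file headers, used here as a signal per library. The deposited log2 fold changes, scores (with a sign opposite to the fold change in 100% of features) and p-values of the authors' own comparison were not used for calls. Tools and builds in the submitters' processing notes are Cufflinks 2.2.1, Cuffdiff, TopHat2 2.0.10, mm10 and mm9, and the table's name gives mm10. Assembler, counter and strand use were not given in the sources used here.

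Of 36180 lines, 36097 were unique features. Table starts count from 0 and are printed plus 1. limma 3.58.1 (trend, robust, R 4.3.3) was fitted to log2(normalised count + 1) of features with a mean of at least 5, with Benjamini-Hochberg adjustment over all 21395 tested and a call at an adjusted p below 0.05. The pseudocount makes the changes of low features look smaller than they are. Values came out as whole multiples of 1 read (tolerance 0.001) in 100% of cases. edgeR 4.0.16 and DESeq2 1.42.0 were run on the reads of 9 libraries; in wild-type 5 and knockout 2 a read is worth nearly 1 normalised count, so that recovery could not be checked there. The fits were also run on simulated counts with known changes. The outcome is not reported here, and nothing about the calls is read from it.

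Full values are given for MSTRG.23435, MSTRG.23436, every called member and the most abundant others up to 10. MSTRG.23415 and MSTRG.23437 were added after their values were seen. The members and lists were chosen with earlier results of these data known. Markers of bipolar, Müller glia, amacrine, ganglion, horizontal, microglia, retinal pigment epithelium, erythrocyte and vascular cells had 16, 2, 5, 1, 1, 0, 10, 0 and 0 tested features, of which 1, 1, 1, 0, 1, 0, 1, 0 and 0 were lower and 2 at bipolar genes higher. Retinal non-coding RNA genes had 34, of which 4 were lower and 4 higher.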

Additional observations from a re-analysis of the deposited data

Results flagged for a closer look

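In MSTRG.23437, 1 of the 24 groups of libraries examined for a value far from the others stood out. Knockout replicate 2 was at 3.03 normalised counts, the next knockout library at 1.04 and the other 4 at 0. Its gap to the nearest library was 0.657 of the range of the 6. For continuous values, chance alone would mark about 1 in 20 groups in this way. That rate need not hold here, where 4 of the 6 values are 0. The value is at the level that a count of 0 allows in that library.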

How the results depend on the processing

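In 21 alternatives (10 other settings and 11 fits that leave out 1 library each), the 5 members called lower kept their call wherever they were tested. With a minimum mean of 20, only 6 members were tested and 2 were called, both lower (MSTRG.23435 and MSTRG.23465), and 3350 of 8266 features were called. In the other alternatives 5 to 7 of 13 to 22 tested members were called, and 5468 to 7607 of 21297 to 36097 tested features. Because the window was chosen on these data, the kept calls support nothing about it. Leaving out 1 library gave 5 to 7 members called of 13 to 15 tested, all of them lower except MSTRG.23371 without knockout 6. Those fits called 5522 to 6269 of 21297 to 21439 tested features. The log2 difference ranged from -4.93 to -4.09 for MSTRG.23435, from -3.14 to -1.55 for MSTRG.23436, from -3.37 to -2.05 for MSTRG.23464, from -2.92 to -2.40 for MSTRG.23465 and from -4.80 to -2.08 for MSTRG.23469, and no direction reversed.

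Calls gained were MSTRG.23415 and MSTRG.23437 without the minimum mean (7607 features called), MSTRG.23389 with edgeR and DESeq2 (5723 and 5468 features called), MSTRG.23368 without wild-type 5 (log2 -1.27), MSTRG.23369 without knockout 1 (-0.59), MSTRG.23371 without knockout 6 (1.00), and again MSTRG.23437, which passed the minimum mean without knockout 1, 3, 4, 5 or 6. limma on the same 9 libraries as the count tests, added after seeing the data, called 5 of 14 tested members and 5660 of 21439 tested features. With the replicate number as a block, 7 of 14 tested members were called, 6 lower and 1 higher (MSTRG.23369 and MSTRG.23371, both at tRNA genes, gained). That fit called 6916 of 21395 tested features, and knockout 6 has no partner and does not bear on it. Same-numbered libraries had correlations of 0.294, 0.00135, 0.123, 0.0512 and 0.273 of their deviations, and only pair 5 correlated best with its own number, so the numbers were not taken as pairing. Depth limits the members near the floor of 3 reads.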
